A study of Mus musculus with 288 samples.

Results

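The mitochondrial respiratory chain and ATP synthase were followed through 89 nuclear genes, out of 19938 genes measured, in 12 mouse tissues over 2 days of constant darkness. The members are all genes whose single symbol in the array annotation names a subunit of complex I (Nduf), complex II (Sdh), complex III (Uqcr), complex IV (Cox4 to Cox8) or ATP synthase (Atp5). By role they divide into 34 complex I genes, 7 complex I assembly factors (Ndufaf1 to Ndufaf7, which the symbol rule also takes in), 4 complex II genes, 8 complex III genes, 19 complex IV genes and 17 ATP synthase genes. Ndufa4, Ndufa4l2 and Cox7a2l were placed with complex IV. All 89 were kept, because no gene was left out for a low level. None of the 13 mitochondrially encoded subunits was measured under a symbol of its own, so only the nuclear part of complexes I, III, IV and ATP synthase is described.

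Complex I takes electrons from NADH and complex II from succinate. Both pass them to coenzyme Q, from which complex III hands them to cytochrome c and complex IV to oxygen. Complexes I, III and IV pump protons out of the mitochondrial matrix, and ATP synthase lets the protons return through a rotating ring and makes ATP. Heart, skeletal muscle and brown adipose tissue are dense in mitochondria. In brown adipose tissue the uncoupling protein Ucp1 lets protons return without ATP synthesis, which yields heat. Several subunits of complex IV exist as isoforms, some of which are typical of contractile tissue, lung or testis.

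C57/BL6 mice were kept for 1 week under 12 h of light and 12 h of dark, then in complete darkness. Circadian time (CT) counts hours, and the subjective day runs from CT0 to CT12 modulo 24 h. Sampling began at CT18 and went on at steps of 2 h until CT64. Heart, skeletal muscle, aorta, lung, liver, kidney, adrenal gland, brown and white adipose, cerebellum, brainstem and hypothalamus have 24 arrays each, 288 in all, and every array holds RNA pooled from 3 mice. Age and sex are not given in the sources used here. With 1 array per time point, p-values reflect how far the pools scatter about the wave, and precision is limited by how many arrays there are.

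Labels and markers were checked first. Taken as the mean of a list, the fixed markers of each labelled tissue lay above the array median in that tissue. Single markers could lie lower, and in heart 7 of the 8 heart muscle markers were above it. Core clock genes passed the test for a 24 h wave in every tissue, 10 of 10 measured in all but brainstem (9) and hypothalamus (7). By a correlation or marker rule, 23 of the 288 arrays stand apart from the rest of their tissue, 6 of them in white adipose, 5 in skeletal muscle and none in brainstem, cerebellum or lung. Markers of other tissues were present in several dissections, and their values are given beside the results they touch. In bulk tissue, fewer cells of a type and less RNA per cell cannot be told apart.

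Levels of the respiratory chain differed widely between tissues. The median over the 89 members, as log2 intensity above the median of all genes on the same array, was highest in heart at 5.16 ± 0.06 (SD over 24 arrays) and lowest in lung at 2.04 ± 0.05. Between them came brown adipose at 4.73 ± 0.10, skeletal muscle at 4.41 ± 0.06, liver at 4.14 ± 0.08, aorta at 3.98 ± 0.15 and kidney at 3.66 ± 0.06. The remaining tissues lay close together, from brainstem at 2.92 ± 0.04 through adrenal gland at 2.83 ± 0.12, hypothalamus at 2.82 ± 0.05 and cerebellum at 2.81 ± 0.04 to white adipose at 2.74 ± 0.14. Lung (1.95 to 2.17 over its arrays) and heart (5.03 to 5.30) did not overlap any other tissue. Of the 89 members, 70 had their highest mean in heart and 11 in brown adipose, while 71 had their lowest in lung. Since the tissues appear to have been normalized apart, these levels are described and not tested. Quantile normalization over all 288 arrays kept heart, brown adipose and lung at ranks 1, 2 and 12, but lowered liver to 3.30 (rank 6) and raised aorta to rank 3.

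**Figure D1:**
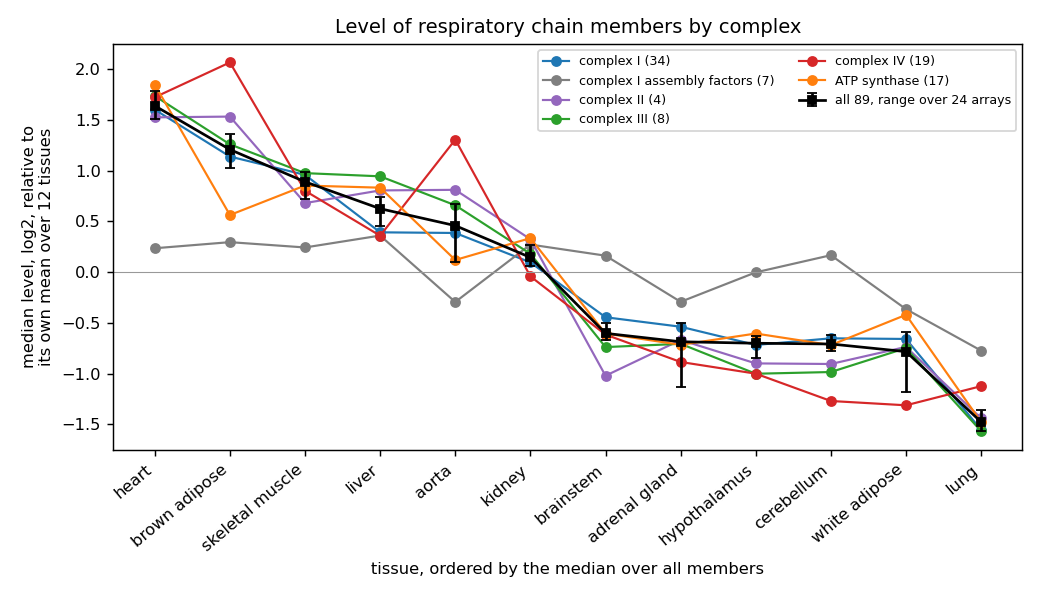
Median level of each complex in each tissue, in log2 units relative to that complex's own mean over the 12 tissues; black squares give all 89 members with the range over 24 arrays. Heart stands at 1.64 and lung at -1.48 for all members, complex IV stands highest in brown adipose (2.06), and the assembly factors vary least.

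By the medians of their members, the complexes did not follow the same order across tissues. Relative to its own mean over the 12 tissues, the complex IV median stood highest in brown adipose (2.06, log2) and at 1.72 in heart and 1.30 in aorta, and lowest in white adipose (-1.31) and cerebellum (-1.27). The mean over the 19 complex IV genes was instead slightly higher in heart (10.66) than in brown adipose (10.56). Which of these 2 tissues stood first in complex IV thus depends on the summary used. ATP synthase stood highest in heart at 1.85 but at 0.56 in brown adipose, below its 0.85 in skeletal muscle and 0.83 in liver. Complex I followed the median of all members closely, from 1.60 in heart to -1.55 in lung. Complex II was about as high in brown adipose (1.53) as in heart (1.52) and stood at -1.02 in brainstem, and complex III ran from 1.73 in heart to -1.57 in lung. Assembly factors, which build complex I and are not part of it, ranged only from 0.36 in liver to -0.77 in lung.

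Within the complexes, the genes with the widest ranges between tissue means were as follows. In complex I these were Ndufa5, Ndufb9 and Ndufb5, accessory subunits of which each was highest in heart and lowest in lung, with ranges of 3.42, 3.31 and 3.29 on the log2 scale. In complex II, Sdhb, the iron-sulfur subunit, ran from 12.39 in heart to 9.39 in lung, and the membrane anchors Sdhd and Sdhc spanned 2.96 and 2.52 with their highest means in brown adipose. In complex III, Uqcrq spanned 3.36, the core subunit Uqcrc1 3.16 and the Rieske iron-sulfur protein Uqcrfs1 3.03. Among assembly factors, Ndufaf1 spanned 2.51, Ndufaf4 2.34 and Ndufaf5 2.09. These ranges are narrower than those of the complex IV isoforms Cox8b (8.06), Cox7a1 (7.07) and Cox6a2 (5.70). The lowest means of these 3 isoforms lay below the median of all genes on the array, and no measure of signal over background was used here, so their ranges are not given as folds.

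Cox6a2, Cox7a1 and Cox8b are the heart and skeletal muscle isoforms of complex IV, and Cox6a1, Cox7a2 and Cox8a are their partners found in most tissues. To show the stretches upstream of 5 of these genes, the 160 bases before the annotated start are printed from RefSeq (mouse build GRCm38.p6), read along the strand of the gene, with motif matches in capitals. The start used for Cox7a2 lies inside the annotated span of the gene (chr9:79755241-79771422), so its window is not upstream of the whole gene. They are Cox7a1 at chr7:30184011-30184170 (plus strand), Cox7a2 at chr9:79759854-79760013 (minus strand), Cox8b at chr7:140900447-140900606 (minus strand), Cox8a at chr19:7217617-7217776 (minus strand) and Cox6a1 at chr5:115348959-115349118 (minus strand).
Cox7a1: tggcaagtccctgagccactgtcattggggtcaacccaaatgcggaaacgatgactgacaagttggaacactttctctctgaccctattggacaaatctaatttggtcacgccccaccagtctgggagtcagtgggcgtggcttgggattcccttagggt
Cox7a2: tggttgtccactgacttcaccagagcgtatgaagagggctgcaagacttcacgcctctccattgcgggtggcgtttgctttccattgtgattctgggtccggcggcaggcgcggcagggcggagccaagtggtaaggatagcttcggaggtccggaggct
Cox8b: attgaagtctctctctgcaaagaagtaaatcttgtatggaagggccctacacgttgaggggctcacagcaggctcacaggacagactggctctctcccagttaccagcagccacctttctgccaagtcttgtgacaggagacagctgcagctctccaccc
Cox8a: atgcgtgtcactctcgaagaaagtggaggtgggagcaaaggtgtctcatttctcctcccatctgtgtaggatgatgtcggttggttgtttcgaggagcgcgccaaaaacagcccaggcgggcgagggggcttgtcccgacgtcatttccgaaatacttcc
Cox6a1: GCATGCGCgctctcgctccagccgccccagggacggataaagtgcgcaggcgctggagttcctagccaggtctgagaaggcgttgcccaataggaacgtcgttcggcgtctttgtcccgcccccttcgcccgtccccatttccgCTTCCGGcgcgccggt

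The search covered 4 motifs on both strands: ETS (CCGGAAG), NRF1 (GCGCATGC), the estrogen-related receptor element ERR (AAGGTCA) and the E-box (CACGTG). Cox6a1 held an ETS match whose first base lies at -16 and an NRF1 match at -160, counted from the start of transcription. A second NRF1 match, on the other strand, begins at -162 and lies partly outside the window. None of the 4 motifs was found in the windows of Cox7a1, Cox7a2, Cox8b and Cox8a. A match is a string of letters and not a site, and the motifs were picked with the results known. In the full 250 bases before the start, ETS was found in 13 of the 78 member promoters (16.7%, against 6.91% of all 32851 promoters in the table), NRF1 in 9 (11.5% against 2.26%), the E-box in 7 (8.97% against 6.02%) and ERR in 4 (5.13% against 4.08%). A promoter entry was matched for 73 of the 89 members.

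Cox8b had the widest range of all members. Its log2 intensity was 13.22, 13.40 and 13.66 (lowest, median and highest of 24 arrays) in heart, 13.23, 13.43 and 13.53 in brown adipose, 13.02, 13.15 and 13.25 in skeletal muscle and 12.53, 12.93 and 13.11 in aorta. In that order each overlapped the next, and all 4 lay above every array of the other 8. Adrenal gland came next at 9.05, 10.37 and 11.05, and hypothalamus was lowest at 5.25, 5.37 and 5.51.

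Cox7a1 was placed alike, with medians of 13.31 in heart, 12.52 in brown adipose, 12.26 in skeletal muscle and 11.87 in aorta. Heart was above the other 3 on every array, those 3 overlapped as neighbours, and white adipose was lowest at 5.92, 6.25 and 6.42. Unlike the other pair of muscle isoforms, Cox6a2 was not high in brown adipose throughout. It reached 12.28, 12.55 and 12.83 in heart and 11.25, 11.73 and 12.05 in skeletal muscle, but 8.26, 9.41 and 10.17 in aorta and 7.56, 8.55 and 10.37 in brown adipose. In the other 8 tissues its mean lay between 6.84 (kidney) and 7.93 (lung).

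Partner isoforms showed other orders. Cox6a1 was highest in brown adipose at 12.18, 12.42 and 12.68 and lowest in skeletal muscle at 7.89, 8.15 and 8.43, and neither range touched another tissue. Cox8a was likewise highest in brown adipose (mean 12.80 ± 0.10, SD over 24 arrays) and lowest in skeletal muscle (mean 9.39 ± 0.11), again without overlap. Cox7a2 moved far less, from a mean of 11.46 in heart to 9.36 in adrenal gland, and in heart it overlapped liver. Levels of different probe sets are not set against each other here, so no ratio of isoforms within a tissue is given.

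**Figure D2:**
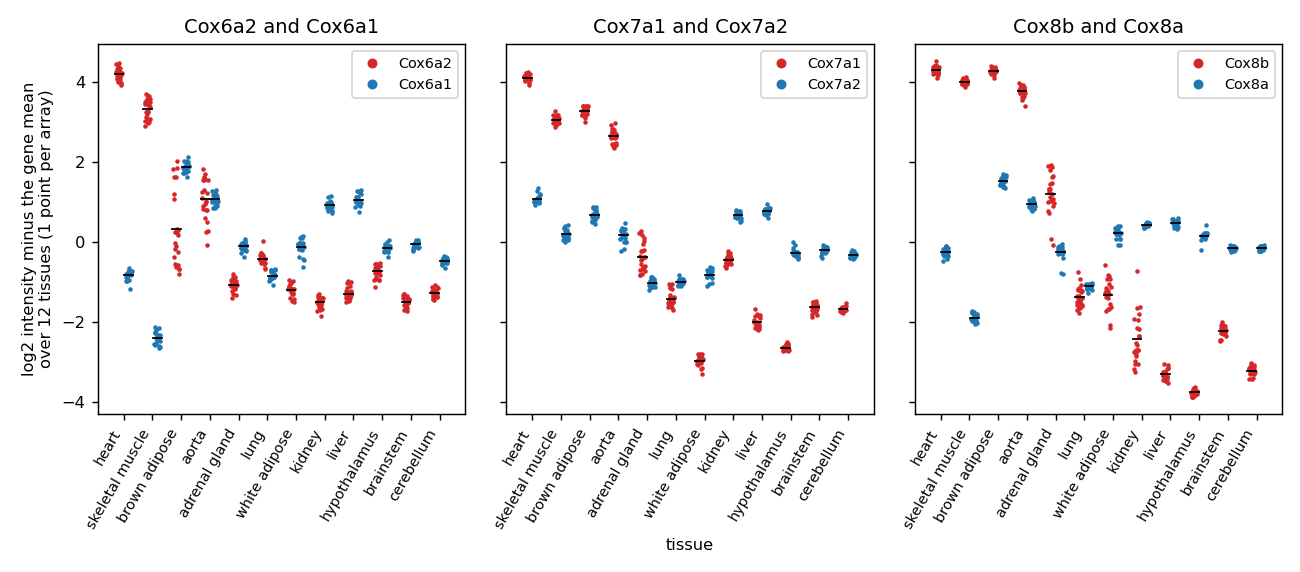
Log2 intensity of 6 complex IV genes on every array, minus the mean of the gene over the 12 tissues, with 24 points per tissue and a black line at their mean. Cox6a2, Cox7a1 and Cox8b (red) stand between 3.06 and 4.30 in heart and skeletal muscle, whereas Cox6a1 and Cox8a (blue) are lowest in skeletal muscle at -2.39 and -1.89.

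Markers of other tissues bear on these levels. In aorta all 6 brown adipocyte markers (among them Ucp1 and Cidea) lay above the array median, their mean running from 9.55 to 10.74 over the arrays, and the 8 heart muscle markers averaged 8.66 to 11.30. In adrenal gland the brown adipocyte mean ran from 6.97 to 8.91 and 4 of its 6 markers lay above the array median. Skeletal muscle markers in aorta averaged 6.48 to 10.31 over the arrays, and 10 of the 12 lay above the array median. How far such tissue contributed to Cox8b, Cox7a1 and Cox6a2 in aorta and adrenal gland was not tested.

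The isoform Cox4i2 stood out in lung, where it was 9.33, 9.55 and 9.68. Heart was next at 7.77, 7.99 and 8.22, without overlap, and liver was lowest at 6.16, 6.31 and 6.43. Its partner Cox4i1, a regulatory subunit present in most tissues, was lowest in lung at 9.47, 9.62 and 10.01 and highest in heart (mean 12.44), which overlapped brown adipose (12.21). Cox6b2, Cox7b2 and Cox8c, isoforms known from testis, stayed near or below the array median in every tissue, with tissue means from 4.02 for Cox7b2 in white adipose up to those of Cox6b2, whose median was 6.97 in brown adipose and 6.99 in lung. Ndufa4, a complex IV subunit first assigned to complex I, ran from a mean of 12.41 in heart to 9.28 in lung. Its relative Ndufa4l2, known to respond to low oxygen, was highest in adrenal gland (7.62), which overlapped lung (7.31) and heart (7.19).

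Atp5g1, Atp5g2 and Atp5g3 encode the same mature subunit c of the proton-carrying ring of ATP synthase. Atp5g1 had a mean of 13.81 in heart and was 12.88, 13.02 and 13.20 in skeletal muscle and 8.08, 9.27 and 10.78 in brown adipose. Heart and skeletal muscle each stood clear of every other tissue. Brown adipose had the lowest mean (9.40), although its highest arrays reached the range of several others. Atp5g2 varied least of the set, with means from 12.54 in heart and 12.22 in brown adipose to 10.73 in lung. Atp5g3 was highest in heart at 13.10, 13.21 and 13.32 and stood at 10.83, 10.99 and 11.24 in brown adipose, without overlap.

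Daily waves were fitted per tissue with limma, as a cosine and a sine of 24 h on the log2 values. A gene is called when the Benjamini-Hochberg adjusted p over all 19938 genes is under 0.05, and folds are peak over trough of the fitted wave. Of 1068 pairs of member and tissue, 108 were called, from 60 of the 89 members. The same totals over all genes are not given here, and the shares per tissue follow below. Most waves were small: 79 of the 108 were under 1.2-fold and 4 were over 1.5-fold. When each day was fitted alone, the peaks of all 108 fell within 4 h of each other on the 2 days, as did 411 of the 960 pairs without a call. Since the test that called the 108 used both days, this is a description and no separate support.

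Liver had the most called members, 39 of 89 (43.8%, beside 26.8% of all genes), followed by lung with 21 (23.6%, beside 20.9%), kidney with 17 (19.1%, beside 25.8%) and brown adipose with 13 (14.6%, beside 16.5%). Cerebellum had 8 (8.99%, beside 5.49%) and aorta 4 (4.49%, beside 5.09%). Brainstem had 2 (2.25%, beside 4.78%), hypothalamus 2 (2.25%, beside 1.8%), white adipose 1 (1.12%, beside 4.85%) and adrenal gland 1 (1.12%, beside 5.89%). No member was called in heart (beside 8.64% of all genes) or in skeletal muscle (beside 5.12%). Genes with high levels were called more often than the average gene in most tissues. Among genes at or above the members' median level, 57.2% were called in liver, 45.3% in kidney, 40.4% in lung and 25.3% in brown adipose. About as many members lie below that level as above it, so the sets are not matched on level. Among genes at or above the median level of all genes the shares were 46.3%, 41.9%, 34.3% and 26.7% in the same tissues, and in liver the members' 43.8% was close to that. These backgrounds by level were added after the values were seen.

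**Figure D3:**
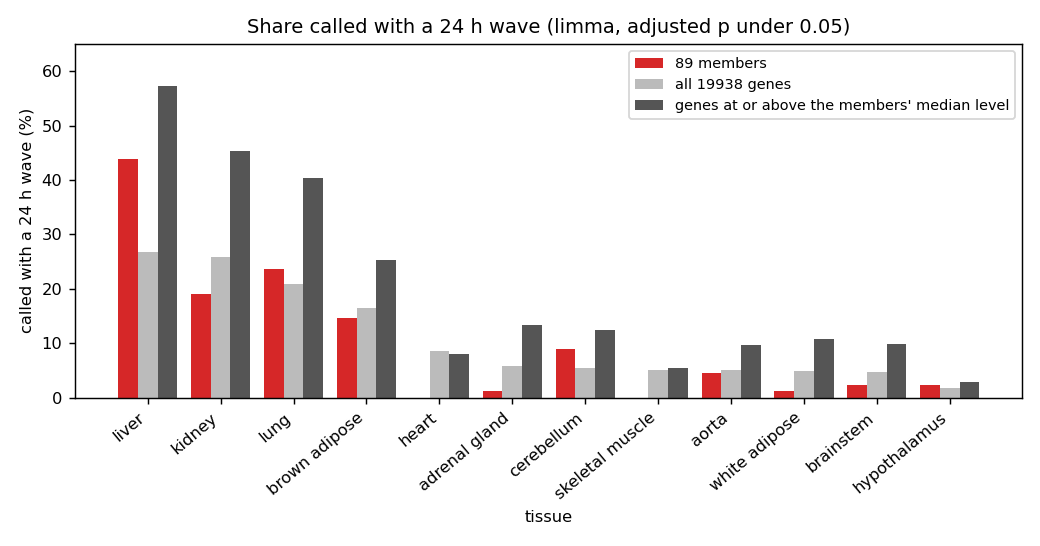
Percent of genes called with a 24 h wave in each tissue (limma, adjusted p under 0.05) for the 89 members (red), all 19938 genes (light grey) and genes at or above the members' median level (dark grey). In liver the 3 shares are 43.8, 26.8 and 57.2, and in heart and skeletal muscle the members' share is 0.

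Typical waves were about as small as those of all genes. Over the 89 members the median fitted fold was 1.10 in liver (all genes 1.09), 1.07 in lung (1.07), 1.05 in kidney (1.08), 1.08 in brown adipose (1.09), 1.06 in heart (1.07) and 1.07 in skeletal muscle (1.07). The highest medians of the members, 1.10 in both adrenal gland and aorta (all genes 1.08 in each), came with 1 and 4 calls. Among genes at or above the median level of all genes, median folds were larger than the members' in several tissues. They were 1.14 in liver, 1.08 in lung, 1.09 in kidney, 1.11 in brown adipose, 1.08 in heart and 1.08 in skeletal muscle. In adrenal gland and aorta they were 1.10 each.

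In liver every complex had called members: 16 of 34 in complex I, 3 of 7 assembly factors, 3 of 4 in complex II, 3 of 8 in complex III, 6 of 19 in complex IV and 8 of 17 in ATP synthase. Their peaks fell into 2 spans of the subjective night and late day, set after the peaks were seen. From CT17.5 to CT23.4 peaked 27 of the 39, with 12 from complex I and 7 from ATP synthase, and from CT10.1 to CT13.9 peaked the other 12. No called member of liver peaked between CT0 and CT10. The share of all called genes with peaks in these spans is not given here, nor for the spans named below in other tissues. Whether such grouping is particular to the members was therefore not tested.

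Atp5k, subunit e of ATP synthase, which helps the enzyme pair into dimers, had the largest wave in liver. Its log2 intensity was 7.73, 8.65 and 9.02 (lowest, median, highest), and the fitted fold was 1.63 (95% interval 1.36 to 1.95) with a peak at CT21.5 ± 0.7 h (SE) and a limma adjusted p of 0.000547. Other ATP synthase members peaked near it, among them Atp5e of the central stalk (1.27-fold, CT20.8), Atp5g2 (1.25-fold, CT22.0), the peripheral stalk subunit Atp5h (1.11-fold, CT22.1) and the catalytic-head subunit Atp5a1 (1.08-fold, CT22.2). Atp5l, subunit g and the structural neighbour of subunit e, peaked at CT12.2 instead (1.12-fold, 1.04 to 1.20, adjusted p = 0.0488).

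Ndufaf4, a complex I assembly factor, ran from 8.74 through 9.31 to 9.64 in liver, 1.50-fold (1.31 to 1.72) with a peak at CT13.9 ± 0.6 h (limma adjusted p = 0.000181). Ndufaf1, another assembly factor, peaked on the other side of the night, at CT23.4 (1.34-fold, 1.22 to 1.47, adjusted p = 0.000103). Ndufb3, an accessory subunit of the membrane arm, ran from 7.56 through 8.13 to 8.42, 1.37-fold (1.23 to 1.52) at CT21.4. The core subunits Ndufs7 and Ndufv1 moved less than Ndufb3, but more than the median of the 34 complex I genes in liver (1.10-fold). Ndufs7, which holds the last iron-sulfur cluster before coenzyme Q, had the smallest adjusted p among the members in liver (2.12e-06) with a fold of 1.17 (1.12 to 1.21, CT20.7), and Ndufv1, which binds NADH, was 1.18-fold (CT20.0).

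Complex II was split in liver. The membrane anchors Sdhd (1.15-fold, CT19.3) and Sdhc (1.08-fold, CT22.2) peaked late in the night, and the iron-sulfur subunit Sdhb (1.13-fold) at CT11.0. In complex III the Rieske protein Uqcrfs1 (1.19-fold, CT11.4) and Uqcr11 (1.23-fold, CT12.3) peaked early, Uqcr10 (1.18-fold) at CT18.8. Complex IV had Cox6a1 at CT10.1 (1.23-fold, 1.14 to 1.33), Cox6b1 at CT11.6, Cox5a at CT13.9, and Cox8a, Cox4i1 and Cox5b between CT20.7 and CT22.2. The CT34 array of liver, which correlated less with the other arrays, gave the lowest value of 30 of the 89 members and of 13 of the 39 called. Without it 37 were called (26.7% of all genes), 35 of them among the 39.

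**Figure D4:**
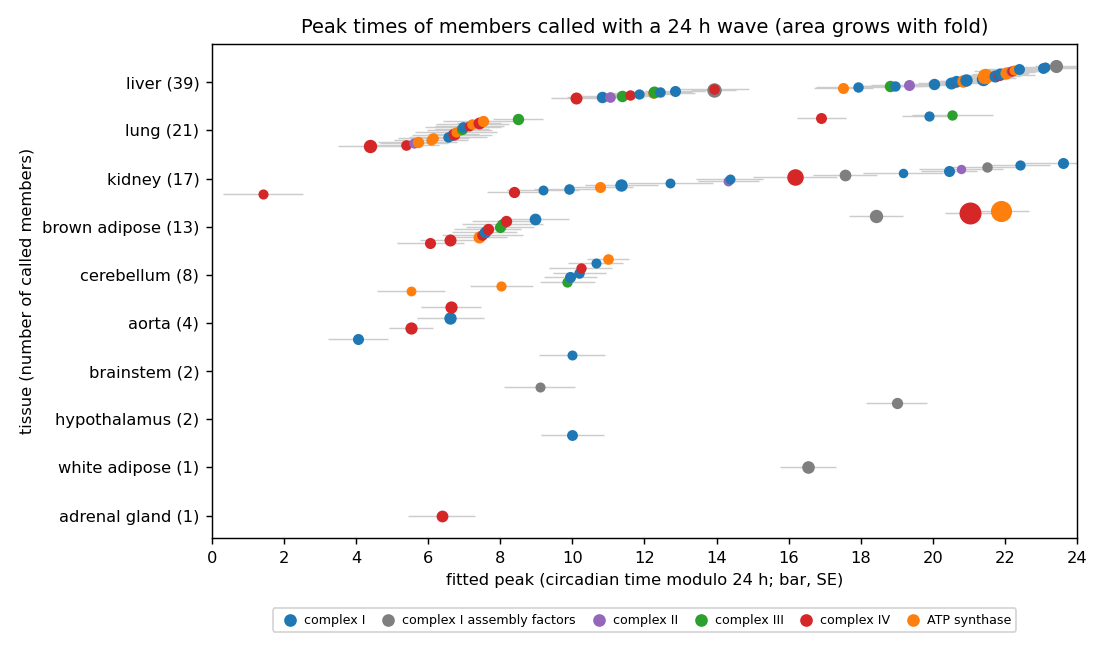
Fitted peak of each called member, in circadian time modulo 24 h, by tissue; grey bars are SE, colours mark the complex and the area of a point grows with the fold. Of the called members, 18 of 21 in lung and 10 of 13 in brown adipose lie from CT4.4 to CT9.0, liver has a group from CT10.1 to CT13.9 and one from CT17.5 to CT23.4, and kidney is spread over the day.

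Lung members peaked in the middle of the subjective day. Of the 21 called, 18 had peaks between CT4.4 and CT8.5, among them 7 ATP synthase members, 5 of complex IV, 3 of complex I, 2 of complex III and Sdhc. Cox4i1 ran from 9.47 through 9.62 to 10.01, 1.22-fold (1.14 to 1.31) with a peak at CT7.4 ± 0.6 h (limma adjusted p = 0.000185). Cox7a2l, a factor that joins complexes III and IV into supercomplexes, ran from 8.68 through 8.92 to 9.23, 1.23-fold (1.14 to 1.34) at CT6.7. Cox8b was 7.37, 7.73 and 8.38, 1.37-fold (1.18 to 1.59) at CT4.4 (adjusted p = 0.00824). The lung isoform Cox4i2 was among 3 exceptions, with a peak at CT16.9 (1.15-fold, 1.09 to 1.20, adjusted p = 0.000569). The others were Ndufs7 at CT19.9 and Uqcrb at CT20.5.

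In lung, heart muscle markers moved with these members. 3 of the 8 were called, their mean ran from 8.67 to 9.72 over the arrays, and its fitted wave was 1.30-fold with a peak at CT3.5. The CT28 array, where this mean was highest, also gave the highest value of 28 of the 89 members and of 14 of the 21 called. Without it 13 members were called (18.3% of all genes), all among the 21, and with the heart marker mean as a covariate 13 were called (16.7% of all genes), 11 among them. Cox8b was 1.14-fold with that covariate (adjusted p = 0.261) and 1.30-fold without the CT28 array (adjusted p = 0.0262). Cox4i1, Cox4i2, Cox5b, Cox7a2l, Uqcrc1, Uqcrh, Ndufs7, Atp5g2 and Atp5o were called under both. These alternatives were chosen after the data were seen. Heart muscle markers were not the only list with a daytime wave in lung. The lymphocyte marker mean was 1.24-fold at CT3.5 (3 of 6 called) and the smooth muscle marker mean 1.12-fold at CT4.6 (3 of 5 called). The adipocyte marker mean was 1.17-fold at CT2.2 (0 of 5 called). Skeletal muscle and brown adipocyte markers moved less, at 1.02-fold and 1.06-fold. No fit with these other lists as covariates is given here.

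Kidney calls had no common time: 1 peaked from CT0 to CT6, 5 from CT6 to CT12, 5 from CT12 to CT18 and 6 from CT18 to CT24. They held 9 members of complex I, 2 assembly factors, 2 of complex II, 3 of complex IV and 1 of ATP synthase, and none of the 8 of complex III. Ndufb3 ran from 7.57 through 8.02 to 8.33, 1.27-fold (1.11 to 1.45) with a peak at CT11.4 (limma adjusted p = 0.0188). Ndufaf4 ran from 8.74 through 9.03 to 9.30, 1.21-fold (1.10 to 1.32) at CT17.6 (adjusted p = 0.00671). Ndufab1, the mitochondrial acyl carrier protein, was 1.15-fold at CT20.4.

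Cox8b had the largest fitted fold in kidney, on a low level. It was 5.89, 6.50 and 8.41, with the highest value at CT40, and 1.84-fold (1.25 to 2.70) with a peak at CT16.2 (limma adjusted p = 0.0459). All 5 adipocyte markers were called in kidney too, with a mean of 6.40 to 7.94 over the arrays and a wave of 1.88-fold peaking at CT16.0. Brown adipocyte markers averaged 6.05 to 6.51 there, also highest at CT40. Their part in the Cox8b wave was not tested. The call was lost on ranks (adjusted p = 0.102), without the CT54 array (1.86-fold, adjusted p = 0.0572) and when the mean of the skeletal muscle markers was a covariate (1.77-fold, adjusted p = 0.0648).

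Brown adipose held the largest waves of all members and tissues. Cox6a2 was 7.56, 8.55 and 10.37, 3.59-fold (2.23 to 5.80) with a peak at CT21.0 ± 0.7 h (limma adjusted p = 0.00115). Atp5g1 was 8.08, 9.27 and 10.78, 3.20-fold (1.97 to 5.19) with a peak at CT21.9 ± 0.8 h (adjusted p = 0.00319). Both were high from CT18 to CT24 and from CT42 to CT46, and Atp5g1 also at CT48. Both were low from CT58 to CT64 and at CT28 and CT36. Ndufaf4 (1.36-fold, 1.20 to 1.55) peaked at CT18.4.

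Skeletal muscle markers followed the same arrays in brown adipose. All 12, such as Acta1 and Ckm, were called there, their gene means lay above the array median, and their mean ran from 6.62 at CT36 to 11.82 at CT44 with a fitted wave of 7.83-fold peaking at CT23.1. With this mean as a covariate, Cox6a2 was 1.99-fold (1.60 to 2.49, CT18.4, adjusted p = 0.000225), Atp5g1 was 1.49-fold (1.25 to 1.78, CT18.9, adjusted p = 0.00667) and Ndufaf4 was 1.39-fold (CT18.9). On ranks, Atp5g1 lost its call (adjusted p = 0.0503).

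**Figure D5:**
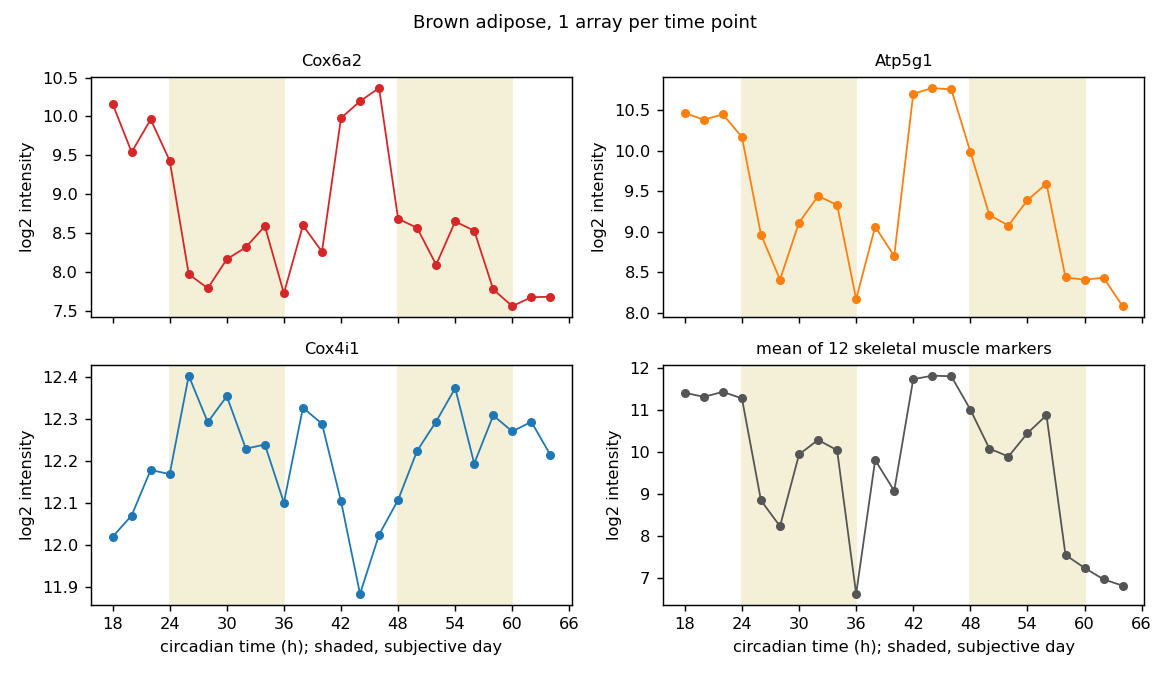
Log2 intensity of Cox6a2, Atp5g1 and Cox4i1 and the mean of 12 skeletal muscle markers on the 24 arrays of brown adipose, against circadian time in hours with the subjective day shaded. Cox6a2, Atp5g1 and the marker mean are high at CT18 to CT24 and CT42 to CT46, while Cox4i1 is lowest at CT44 (11.88).

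The other 10 called members of brown adipose peaked by day, from CT6.1 to CT9.0, with folds of 1.12 to 1.23. They were Cox7a2, Cox7a2l, Cox5a, Cox4i1 and Ndufa4 of complex IV, Uqcrh and Uqcrc1 of complex III, Ndufa5 and Ndufb10 of complex I, and Atp5l. Cox4i1 was 11.88, 12.23 and 12.40, 1.17-fold (1.08 to 1.27, CT7.7, adjusted p = 0.0147), and its lowest arrays were those at CT44, CT18 and CT46, where the muscle markers were high. With the muscle marker mean as a covariate, 8 members were called (9.98% of all genes), of which 7 were among the 13. The other 6 lost their calls at folds slightly below the reported ones. Cox4i1 went from 1.17-fold to 1.14-fold (adjusted p = 0.0584), Cox5a from 1.12 to 1.10, Ndufa4 from 1.18 to 1.13, Ndufb10 from 1.20 to 1.16, Uqcrc1 from 1.12 to 1.08 and Uqcrh from 1.16 to 1.14 (fitted folds).

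In cerebellum all 8 called members peaked from CT5.5 to CT11.0 with folds of 1.07 to 1.15. Atp5g1 was 10.69, 10.78 and 10.92, 1.12-fold (1.08 to 1.16) at CT11.0 (limma adjusted p = 0.000401). Ndufb8 (1.15-fold, CT9.9), Ndufb9 (1.11-fold, CT10.2) and Ndufb11 (1.08-fold, CT10.6), accessory subunits of the membrane arm of complex I, peaked within an hour of each other. Uqcrc1, Cox6a1, Atp5g2 and Atp5c1, the rotating gamma subunit, made up the rest.

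Aorta had 4 calls, all by day. Cox7a2l was 8.33, 8.57 and 8.79, 1.25-fold (1.16 to 1.35) at CT5.5 (limma adjusted p = 0.000838). Ndufa5 (1.26-fold, CT6.6), Cox4i1 (1.25-fold, CT6.6) and Ndufv3 (1.15-fold, CT4.1) had adjusted p-values of 0.0365, 0.0149 and 0.0143. Brown adipocyte markers in aorta had a mean wave of 1.29-fold peaking at CT5.7, with 1 of 6 called, and the CT46 array gave the lowest value of 45 of the 89 members. With their mean as a covariate Cox7a2l was called (1.21-fold) and the other 3 were not, at 1.18-fold for Ndufa5, 1.17-fold for Cox4i1 and 1.11-fold for Ndufv3 (3.39% of all genes were called). With the heart marker mean 9 members were called (4.93% of all genes). Skeletal muscle markers had the largest mean wave of the lists given for other tissues in aorta, 3.12-fold peaking at CT10.9, with 1 of 12 called. With their mean as a covariate Cox7a2l, Cox4i1 and Ndufv3 were called, and Ndufa5 was not (1.25-fold, limma adjusted p = 0.0634).

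Single calls were few elsewhere. Ndufaf4 was the one member called in white adipose (7.50, 7.82 and 8.10, 1.29-fold, 1.16 to 1.43, CT16.5, limma adjusted p = 0.0108), and on ranks its adjusted p was 0.0556. Ndufa4 was the one in adrenal gland (9.60, 9.93 and 10.24, 1.21-fold, CT6.4, adjusted p = 0.0343), where it lost its call with either of 2 marker means as a covariate. With brown adipocyte markers (mean 6.97 to 8.91 over the arrays, 1.71-fold, CT5.3) Ndufa4 was 1.11-fold (limma adjusted p = 0.388), and with skeletal muscle markers (5.76 to 7.05) it was 1.17-fold at CT6.7 (adjusted p = 0.248). Hypothalamus had Ndufaf1 (1.17-fold, CT19.0, 0.0376) and Ndufb9 (1.14-fold, CT10.0, 0.0483), and its CT18 array gave the lowest value of 53 of the 89 members. Brainstem had Ndufaf3 (1.08-fold, CT9.1, 0.046) and Ndufa13 (1.08-fold, CT10.0, 0.029).

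Heart and skeletal muscle, with the highest and the third highest levels, gave 0 calls each by limma's test, with 18 and 15 members at an unadjusted p under 0.05. Clock genes were called there, 10 of 10 in each, with median folds of 3.14 and 2.48. The members nearest to a call were Uqcr10 in heart, at 10.07, 10.33 and 10.75 (1.22-fold, 1.09 to 1.36, adjusted p = 0.0527), and Ndufb3 in skeletal muscle, at 7.93, 8.50 and 8.75 (1.30-fold, 1.12 to 1.50, adjusted p = 0.0666). Over the alternatives, heart gave up to 4 calls (among genes at or above the tissue median, of which 19.9% were called) and skeletal muscle up to 9 (with array weights, 10.5% of all genes). In skeletal muscle 5 of 6 lymphocyte markers were called (mean 5.53 to 7.57 over the arrays). So were 4 of 5 adipocyte markers (7.14 to 9.41). Fitting the waves there together with the lymphocyte markers gave 1 call, Ndufa8, beside 1.93% of all genes. That fit was chosen after the data were seen. The part of the adipocyte markers in the members' values was not tested. A missed threshold does not show that these genes were constant.

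Across tissues, 30 members were called in 1 tissue, 18 in 2, 6 in 3 and 6 in 4, and 29 in none. No such counts over all genes are given here, so whether members were shared more widely than other genes was not tested. The 6 called in 4 tissues were Atp5g1, Ndufaf4, Cox7a2l, Atp5g2, Cox4i1 and Ndufa5. Cox7a2l kept to the day, at CT5.5 in aorta, CT6.6 in brown adipose, CT6.7 in lung and CT8.4 in kidney. Ndufaf4 kept to the evening and night, at CT13.9 in liver, CT16.5 in white adipose, CT17.6 in kidney and CT18.4 in brown adipose. Cox4i1 peaked at CT6.6 in aorta, CT7.4 in lung and CT7.7 in brown adipose but at CT21.8 in liver. Ndufa5 did likewise, at CT6.6, CT7.0 and CT7.6 against CT12.8 in liver. Atp5g2 peaked at CT7.2 in lung, CT8.0 in cerebellum, CT10.8 in kidney and CT22.0 in liver, and Atp5g1 at CT6.1 in lung, CT11.0 in cerebellum, CT17.5 in liver and CT21.9 in brown adipose.

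To show what lies upstream of members with waves in several tissues, 3 more windows of 160 bases before the annotated start are printed in the same way: Ndufaf4 at chr4:24897923-24898082 (plus strand), Atp5g1 at chr11:96075632-96075791 (minus strand) and Atp5l at chr9:44920743-44920902 (minus strand).
Ndufaf4: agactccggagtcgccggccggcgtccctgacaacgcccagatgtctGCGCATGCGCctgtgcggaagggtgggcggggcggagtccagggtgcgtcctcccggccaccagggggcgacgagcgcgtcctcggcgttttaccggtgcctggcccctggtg
Atp5g1: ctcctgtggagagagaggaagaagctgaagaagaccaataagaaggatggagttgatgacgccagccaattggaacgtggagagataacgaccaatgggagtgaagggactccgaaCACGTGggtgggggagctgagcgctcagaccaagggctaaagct
Atp5l: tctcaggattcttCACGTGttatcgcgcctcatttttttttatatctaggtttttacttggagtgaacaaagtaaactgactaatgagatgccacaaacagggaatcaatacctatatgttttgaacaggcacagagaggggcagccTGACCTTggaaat
Ndufaf4 held overlapping NRF1 matches on both strands, with first bases at -113 and -111. Atp5g1 held an E-box at -44, and Atp5l an E-box at -147 and an ERR match at -13. The start used for Atp5g1 lies inside the annotated span of the gene (chr11:96072793-96075694). Part of its window, with the E-box, therefore lies within that span and not upstream of it. Farther upstream, in the 250 bases searched but not printed here, Atp5l also held an ETS match at -212 and an NRF1 match at -240. These are matches of letters, and nothing about binding was measured.

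Calls shared between tissues did not share their times in every case. Kidney and liver had 10 in common (58.8% of kidney's and 25.6% of liver's), 5 of them with peaks at least 8 h apart. Liver and lung had 9 in common (23.1% and 42.9%), again 5 with peaks at least 8 h apart. Brown adipose and lung had 8 in common (61.5% and 38.1%), of which 7 peaked within 4 h of each other. Overlaps and peak distances over all called genes are not given here. Whether these counts are particular to the members was therefore not tested.

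The differences themselves were tested next. Across all 12 tissues, the wave of 48 of 89 members differed by limma's moderated F test of the 22 interaction terms (49.6% of all genes did), with 17 of 34 in complex I, 4 of 7 assembly factors, 3 of 4 in complex II, 5 of 8 in complex III, 12 of 19 in complex IV and 7 of 17 in ATP synthase. The smallest adjusted p-values were those of Cox6a2 (1.34e-12) and Atp5g1 (1.96e-12).

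Between liver and kidney, 36 members differed (20.2% of all genes did), 9 of them called in both tissues, 22 in liver alone, 2 in kidney alone and 3 in neither. Atp5g2 was 1.25-fold at CT22.0 in liver and 1.15-fold at CT10.8 in kidney (limma adjusted p of the difference = 2.66e-06). Ndufs7 was 1.17-fold at CT20.7 and 1.08-fold at CT14.4 (3.86e-06). Ndufb3 was 1.37-fold at CT21.4 and 1.27-fold at CT11.4 (1.84e-05). Ndufs4, an accessory subunit, was the reverse, 1.11-fold at CT12.4 in liver and 1.10-fold at CT22.4 in kidney.

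Brown and white adipose differed in 7 members (3.83% of all genes did): Cox6a2, Ndufa5, Uqcrfs1, Cox5a, Atp5g1, Ndufb10 and Atp5l. Cox6a2 was 3.59-fold in brown adipose and 1.03-fold in white (adjusted p of the difference = 0.00682). Ndufa5 was 1.19-fold at CT7.6 in brown and 1.14-fold at CT19.7 in white adipose (0.00861), and Uqcrfs1 was 1.15-fold at CT7.8 and 1.18-fold at CT20.9 (0.0119), neither called in white adipose. Skeletal muscle markers, with a 7.83-fold wave in brown and 1.07-fold in white adipose, moved with this comparison. With their mean as a covariate 2 members differed (1.64% of all genes), Cox6a2 (adjusted p = 0.00492) and Ndufa5 (0.0484), and Uqcrfs1 did not (0.0762). With the time point as a block 3 differed (4.16% of all genes), namely Cox6a2, Ndufa5 and Uqcrfs1, and without the arrays that stand apart 13 (5.26%).

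Heart and skeletal muscle differed in 5 members (5% of all genes did), none of them called in either tissue. Atp5g3 was 1.06-fold at CT18.5 in heart and 1.10-fold at CT7.5 in skeletal muscle (adjusted p of the difference = 0.0286), Uqcr10 was 1.22-fold at CT17.4 and 1.11-fold at CT5.8 (0.0331), and Cox8b was 1.11-fold at CT16.4 and 1.06-fold at CT4.5 (0.0382). Ndufa8 and Ndufs8 made up the 5, also with peaks in the night in heart and early in the day in skeletal muscle. Without the arrays that stand apart 1 member differed (2.74% of all genes), Ndufa8. Cerebellum and brainstem differed in 0 members by limma's test (0.411% of all genes did), with 7 at an unadjusted p under 0.05 and a smallest adjusted p of 0.0956.

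Waves of 12 h were looked for in liver in a model that also held waves of 24 h and 8 h. No member was called (0.326% of all genes were), 7 had an unadjusted p under 0.05, and the smallest limma adjusted p was 0.221, for Ndufb3 (1.17-fold, 1.08 to 1.27). The median 12 h fold was 1.04 over the members and 1.05 over all genes.

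Genes that work with the chain were counted from fixed lists. In liver, 16 of 32 assembly factors outside the symbol rule were called, 7 of 14 genes of cytochrome c and coenzyme Q synthesis, 7 of 15 regulators of mitochondrial biogenesis, 4 of 12 genes of the tricarboxylic acid cycle and 2 of 5 carriers of adenine nucleotide, phosphate or protons. Kidney had 12, 6, 6, 4 and 0 of the same lists, beside 25.8% of all genes there and 26.8% in liver. Among genes at or above the median level of all genes the shares were 41.9% in kidney and 46.3% in liver. The lists were not matched on level. Heart had 1, 2, 2, 0 and 1 (beside 8.64% of all genes), and skeletal muscle 0, 1, 1, 0 and 0 (beside 5.12%).

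Of the coenzyme Q genes, Coq10b and Coq8a had larger fitted folds in liver than any member. Coq10b, which chaperones coenzyme Q, was 3.07-fold (2.41 to 3.91, CT10.9, limma adjusted p = 2.9e-07), and Coq8a, an atypical kinase needed for its synthesis, 2.36-fold (2.07 to 2.70, CT23.6). Coq4 was 1.35-fold at CT23.2. Of the 16 called assembly factors outside the symbol rule, 11 peaked in the later span of the liver members (CT17.5 to CT23.4), 2 in the earlier span and 3 outside both. The largest folds were those of Cox20 at 1.40-fold (CT22.6), Bcs1l, which inserts the Rieske protein, at 1.38-fold (CT21.9) and Cox18 at 1.38-fold (CT22.2). Among regulators, the coactivator Ppargc1b was 1.49-fold at CT7.6, Gabpb1, a partner of an ETS factor, 1.39-fold at CT1.8, and Tfb1m, a methyltransferase of the mitochondrial ribosome, 1.36-fold at CT21.2.

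In brown adipose 4 of 5 carriers were called (beside 16.5% of all genes). Ucp3 was 1.90-fold (1.60 to 2.24) at CT7.3 and Ucp1 1.34-fold (1.20 to 1.50) at CT5.5. The adenine nucleotide carrier Slc25a4, known from heart and muscle, was 1.36-fold at CT21.6, close to Cox6a2 and Atp5g1, and the part of the muscle markers in its wave was not tested. In kidney the cycle enzyme subunits Idh3a (1.24-fold, CT19.5), Sucla2 (1.11-fold, CT22.0) and Dld (1.09-fold, CT22.6) peaked in the night.

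Probe sets limit some members. Of the 89, 17 had several probe sets, of which the one with the highest mean was used. Over the 288 arrays the others correlated with it at 0.98 to 0.9995 (Pearson) except for Ndufa11 (0.87) and Cox7a2l (0.69). The mean of both Cox7a2l probe sets gave 1.28-fold in aorta and 1.22-fold in lung, called in both. This mean contains the probe set already used, so it cannot show whether the other one has the wave. A fit of that other probe set alone is not given here. Whether a probe set also reads a near-identical copy elsewhere in the genome was not tested.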

How the data were processed

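RNA of 12 tissues was measured on 288 arrays (24 per tissue, 1 per time point, RNA of 3 mice each). The deposited values are intensity on a linear scale, from 6.9 to 45307.8. The submitters' processing notes name GCRMA and Affymetrix Expression Console without versions, and whether tissues were normalized together is not given in the sources used here. No background filter was applied. The log2 of each deposited intensity was taken with no pseudocount. Of 35556 probe sets, 21789 had 1 symbol in the platform annotation, 1621 several and 12146 none. For each of 19938 genes the probe set with the highest mean was used. The number of arrays limits the precision.

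Waves of 24 h were fitted per tissue in limma 3.58.1 (R 4.3.3) with a moderated F test of cosine and sine, trend on mean level, and Benjamini-Hochberg adjustment over all genes. Intervals are 95%. Differences of waves used the interaction terms. Levels were described only. Tables and figures were made in Python 3.11.15 with numpy 2.4.6, pandas 2.3.3 and matplotlib 3.10.9. The scripts were tested on simulated data.

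Named genes were the tissue isoforms and their partners, the 3 called members with the largest fold per tissue, the 6 called in most tissues, the 3 with the widest range of level per complex, the 3 with the smallest p per pair of tissues and the 3 largest waves of each pathway list. Other members are named to complete a count and were chosen after their values were seen. The members, lists and tests were chosen with earlier results of these data known. Motifs, promoters shown, spans of peak times, the background by level and some marker covariates were chosen after the values were seen. Alternatives covered an added constant of 32, a filter on level, the mean of probe sets, quantile normalization, ranks, a straight line or marker means as covariates, array weights, and leaving out arrays that stand apart.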

Additional observations from a re-analysis of the deposited data

Results flagged for a closer look

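Results are listed here because the waves of the same gene differed between tissues by a direct test of the difference. Over the 12 tissues 48 of 89 members differed (49.6% of all genes did), between liver and kidney 36 (20.2%), between brown and white adipose 7 (3.83%), and between heart and skeletal muscle 5 (5%), each by limma with adjustment over all genes. The counts over 12 tissues and between heart and skeletal muscle lie near these shares and say nothing particular about the members. For the other pairs, no share among genes of high level was computed for the difference. Whether the members differ more often than genes of like level was not tested.

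Between liver and kidney the smallest adjusted p-values of the difference from limma were those of the ring subunit Atp5g2 (2.66e-06), the complex I core subunit Ndufs7 (3.86e-06) and the accessory subunit Ndufb3 (1.84e-05). All 3 were called in both tissues and peaked later in the 24 h cycle in liver. Between brown and white adipose they were those of the muscle isoform Cox6a2 (0.00682), Ndufa5 (0.00861) and the Rieske protein Uqcrfs1 (0.0119), where Uqcrfs1 was called in neither tissue alone. Skeletal muscle markers moved with this comparison (7.83-fold in brown, 1.07-fold in white adipose). With the marker mean as a covariate 2 of the 7 members differed, Cox6a2 and Ndufa5, and with the time point as a block 3, which were Cox6a2, Ndufa5 and Uqcrfs1. Between heart and skeletal muscle they were those of Atp5g3 (0.0286), Uqcr10 (0.0331) and Cox8b (0.0382), none of them called in either tissue and none of them past the threshold without the arrays that stand apart.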

How the results depend on the processing

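No peak moved by over 6 h among the 886 values of members and tissues called both as reported and under an alternative. Of the other values, most of them called neither way, 191 moved that far. For 85 pairs of a named member and a tissue, 740 values kept their side of the threshold, 32 lost a call and 8 gained one. Over all 1068 pairs, 52 of the 108 calls were lost under at least 1 alternative and 110 of the 960 pairs without a call gained one. For counts and levels, 100 stayed within 1.5 times the reported count or 1 SD, and 54 did not. Members called under every alternative run in their tissue, leaving aside those chosen after the data were seen, numbered 28 of 39 in liver, 13 of 21 in lung, 9 of 17 in kidney, 6 of 13 in brown adipose, 4 of 8 in cerebellum and 2 of 4 in aorta, and 0 in the other tissues. The causes of the shifts were not tested.

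Counts of called members are followed by the share of all genes called under the same alternative. With array weights the count was 12 in adrenal gland (15.8%), 9 in aorta (9.42%), 22 in brown adipose (20.6%), 2 in heart (10.4%), 7 in hypothalamus (5.62%), 34 in lung (28.5%), 9 in skeletal muscle (10.5%) and 9 in white adipose (10.2%). With genes at or above the tissue median only, it was 4 in adrenal gland (13.7%), 7 in aorta (12.6%), 21 in brown adipose (32.2%), 4 in heart (19.9%) and 1 in skeletal muscle (9.66%). Quantile normalization gave 2 in adrenal gland (8.95%), 8 in aorta (7.09%), 26 in brown adipose (20.8%), 1 in heart (10.8%), 2 in skeletal muscle (6.53%) and 4 in brainstem (5.72%). Ranks gave 2 in aorta (2.84%), 4 in cerebellum (2.17%), 0 in brainstem (1.21%), 0 in hypothalamus (1.17%) and 0 in white adipose (2.85%). A straight line as covariate gave 8 in aorta (5.46%), 2 in heart (8.95%), 1 in brainstem (3.81%) and 1 in hypothalamus (1.47%). Without the arrays that stand apart it was 0 in adrenal gland (3.73%), 6 in hypothalamus (3.36%), 1 in skeletal muscle (2.88%) and 4 in white adipose (5.24%). Skeletal muscle markers as a covariate gave 0 in adrenal gland (2.89%), 8 in brown adipose (9.98%) and 1 in heart (8.61%). Of the alternatives chosen after the data were seen, brown adipocyte markers gave 0 in adrenal gland (3.36%) and 1 in aorta (3.39%), heart muscle markers 9 in aorta (4.93%) and 13 in lung (16.7%), lymphocyte markers 1 in skeletal muscle (1.93%), and lung without its CT28 array had 13 (18.3%).

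The labels share no replicate numbers, so the circadian time point served as the block. With this block the waves of 49 members differed over the 12 tissues (51.4% of all genes), 33 between liver and kidney (22.6%), 7 between heart and skeletal muscle (5.55%), 3 between brown and white adipose (4.16%) and 0 between cerebellum and brainstem (0.547%). Without the arrays that stand apart 1 differed between heart and skeletal muscle (2.74%) and 13 between brown and white adipose (5.26%), where skeletal muscle markers as a covariate left 2 (1.64%).

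Quantile normalization over 288 arrays moved the median member level above the array median to 4.65 in heart, 4.47 in brown adipose, 4.09 in skeletal muscle, 3.50 in kidney, 3.30 in liver, 3.22 in brainstem, 3.12 in adrenal gland, 2.91 in white adipose and 2.90 in hypothalamus. With 1 array per time point, leaving out a replicate of a time was not possible.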
